A study of Homo sapiens with 35 samples.

Results

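De novo nucleotide synthesis was described through 10 genes, PPAT, GART, PFAS, PAICS, ADSL and ATIC for purines and CAD, DHODH, UMPS and CTPS1 for pyrimidines, which were selected by symbol among the 19665 protein-coding entries of the count table. All 10 were present, and all were among the 17999 entries with a count in at least 1 library. The cells were RPMI-8226, an established multiple myeloma line, and their RNA was sequenced before and on days 1, 2, 4, 6, 8 and 10 after a pulse of 1 h with 750 nM carfilzomib, an irreversible inhibitor of the proteasome. Each day had 5 subcultures, numbered as replicates 1 to 5, for 35 libraries in total. The sample labels name the carfilzomib treatment for day 0 as well, but the methods place the day 0 collection ahead of the drug, and day 0 was taken as untreated. No cultures left untreated were available on the later days, so time in culture and recovery from the drug cannot be told apart.

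A cell builds purines on the sugar phosphate PRPP, in a chain of reactions that ends at inosine monophosphate (IMP), from which AMP and GMP are made. Pyrimidines are built as a ring first and then joined to PRPP, which gives uridine monophosphate (UMP), and CTP is made later from UTP. Both routes draw on glutamine, and purine synthesis also takes formyl groups from folate. Several of the enzymes carry more than 1 activity in a single chain. Proliferating cells depend on these routes for RNA and DNA, whereas the salvage enzymes recycle bases and nucleosides that are already there. MYC is known as an activator of many genes of both routes, and it binds the E-box CACGTG.

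PPAT and PAICS lie head to head on chromosome 4. In the GENCODE annotation of GRCh38, PPAT (ENSG00000128059.8, chr4:56393362-56435615) is on the minus strand and PAICS (ENSG00000128050.9, chr4:56435741-56464578) on the plus strand, with 125 bases between them, of which 76.0% are G or C. This interval is shown because both genes start at its edges, and because their transcripts are compared with each other below. It is given on the plus strand of GRCh38.p14, so that PPAT is read to the left and PAICS to the right.
PPAT to PAICS interval, chr4:56435616-56435740: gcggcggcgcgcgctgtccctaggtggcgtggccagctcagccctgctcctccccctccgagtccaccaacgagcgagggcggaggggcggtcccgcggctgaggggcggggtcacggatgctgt
The next sequences are shown as the places where the E-box of MYC and its relatives occurred in the promoters. RefSeq windows from 250 bases before to 50 bases after each transcript start were searched for CACGTG, which reads the same on both strands, and the match is in capitals. Windows were found for 9 of the 10 genes, and 4 of the 9 held a match, compared with 8.77% of 27305 genes. The match of PPAT and that of PAICS are the same 6 bases (chr4:56435792-56435797), 182 bases before the RefSeq start of PPAT on the minus strand and 40 bases after that of PAICS on the plus strand. ATIC (GENCODE chr2:215311956-215349773, plus strand) held a match 46 bases before its RefSeq start and another 29 bases after it. DHODH (GENCODE chr16:72008588-72027664, plus strand) held a match 159 bases before its RefSeq start. The GENCODE spans of ATIC and DHODH begin upstream of these RefSeq starts, so the distances do not refer to the printed spans.
ATIC, chr2:215312001-215312030, plus strand: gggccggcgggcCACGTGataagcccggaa
ATIC, chr2:215312076-215312105, plus strand: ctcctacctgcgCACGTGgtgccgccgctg
PPAT, chr4:56435780-56435809, minus strand: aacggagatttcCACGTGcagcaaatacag
PAICS, chr4:56435780-56435801, plus strand: ctgtatttgctgCACGTGgaaa
DHODH, chr16:72008573-72008602, plus strand: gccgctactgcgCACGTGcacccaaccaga
The element of C/EBP and ATF factors, searched as TGATGNAA on both strands, was found in the window of 0 of the 9 genes and in 4.46% of all genes. A match describes letters in a window and is not evidence of binding, and no binding was measured.

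The authors' count estimates summed to between 6519392 and 10962890 per library. The unit CPM gives each count relative to its library's protein-coding total after TMM normalisation, so a value describes a share of the protein-coding RNA. In RNA from whole cultures, a change in the number of cells that express a gene and a change in the RNA per cell cannot be told apart. Days were compared by edgeR (quasi-likelihood F-test, all 35 libraries in 1 model), and a change was called at a Benjamini–Hochberg adjusted p (Q) of at most 0.05 over all 17999 entries. The methods describe the subcultures as split from 1 expanded culture, while legends call them independent experiments, and in the former case the p-values measure the spread between subcultures alone. Plasma cell markers were detected in every library, from SLAMF7 at 11.2 to 29.2 CPM to MZB1 at 199 to 724 CPM. Their summed level over 8 markers was 1308 to 1455 CPM on day 1, below the 1880 to 2343 CPM of the other days. Of 7 markers of other cell types, CD3D and LYZ had a median of 0 CPM, whereas the epithelial marker EPCAM was present at 43.97 to 95.7 CPM. The summed level of these 7 markers was 62.2 to 86.4 CPM on day 0 and 82.1 to 93.5 CPM on day 1. From day 4 onwards it was 92.2 to 114 CPM, above the day 0 range in every library. Most of this sum was EPCAM, with a median of 85.5 CPM over the libraries, and the next marker, MS4A1, had a median of 9.32 CPM. Whether the lower plasma cell markers of day 1 or the higher sum of the others from day 4 had a part in the differences of these days was not tested.

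Most of the 10 transcripts were highest on day 2. The mean level was highest on day 2 for 6 of them (PPAT, PFAS, PAICS, ADSL, ATIC and CAD), and it was lowest on day 0 for 5 of them (PPAT, PFAS, PAICS, ADSL and ATIC). Compared with day 0, 5 transcripts were higher and 3 lower on day 1, when 25.4% of all tested entries were higher and 27.3% lower. On day 2, 7 were higher and 1 lower, compared with 23.2% and 24.4% of all entries. The median log2 fold change of the 10 genes was 0.24 on day 1 and 0.58 on day 2, while that of all entries was -0.06 and -0.04. Among the 12301 entries that passed a filter on low counts, as all 10 genes did, the shares higher and lower were 36.1% and 34.8% on day 1, 33.1% and 31.7% on day 2, 27.0% and 27.0% on day 4, 24.8% and 23.2% on day 6, 25.9% and 24.8% on day 8, and 23.1% and 21.6% on day 10. The numbers then fell to 4 higher and 2 lower on day 4 (background 19.0% and 20.1%), and to 3 higher and 3 lower on day 6 (17.5% and 17.0%) and on day 8 (18.2% and 18.6%). On day 10, 7 were higher again and 1 lower (16.1% and 15.8%), with a median log2 fold change of 0.19. None of the 10 changed by more than 2-fold on any day, whereas on days 1, 2, 4, 6, 8 and 10 this fold was passed upwards by 7.27%, 6.32%, 4.12%, 3.18%, 3.60% and 2.41% of all entries and downwards by 13.2%, 8.94%, 5.29%, 3.52%, 4.58% and 3.52%. Without scaling factors, the median entry moved by 0.12, 0.13, 0.11, 0.06, 0.05 and 0.07 on days 1, 2, 4, 6, 8 and 10, and the genes called higher were then 7, 8, 7, 3, 4 and 9, while those lower were 2, 1, 1, 3, 2 and 1. Counts per library were between 46 and 3940 for these genes.

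**Figure D1:**
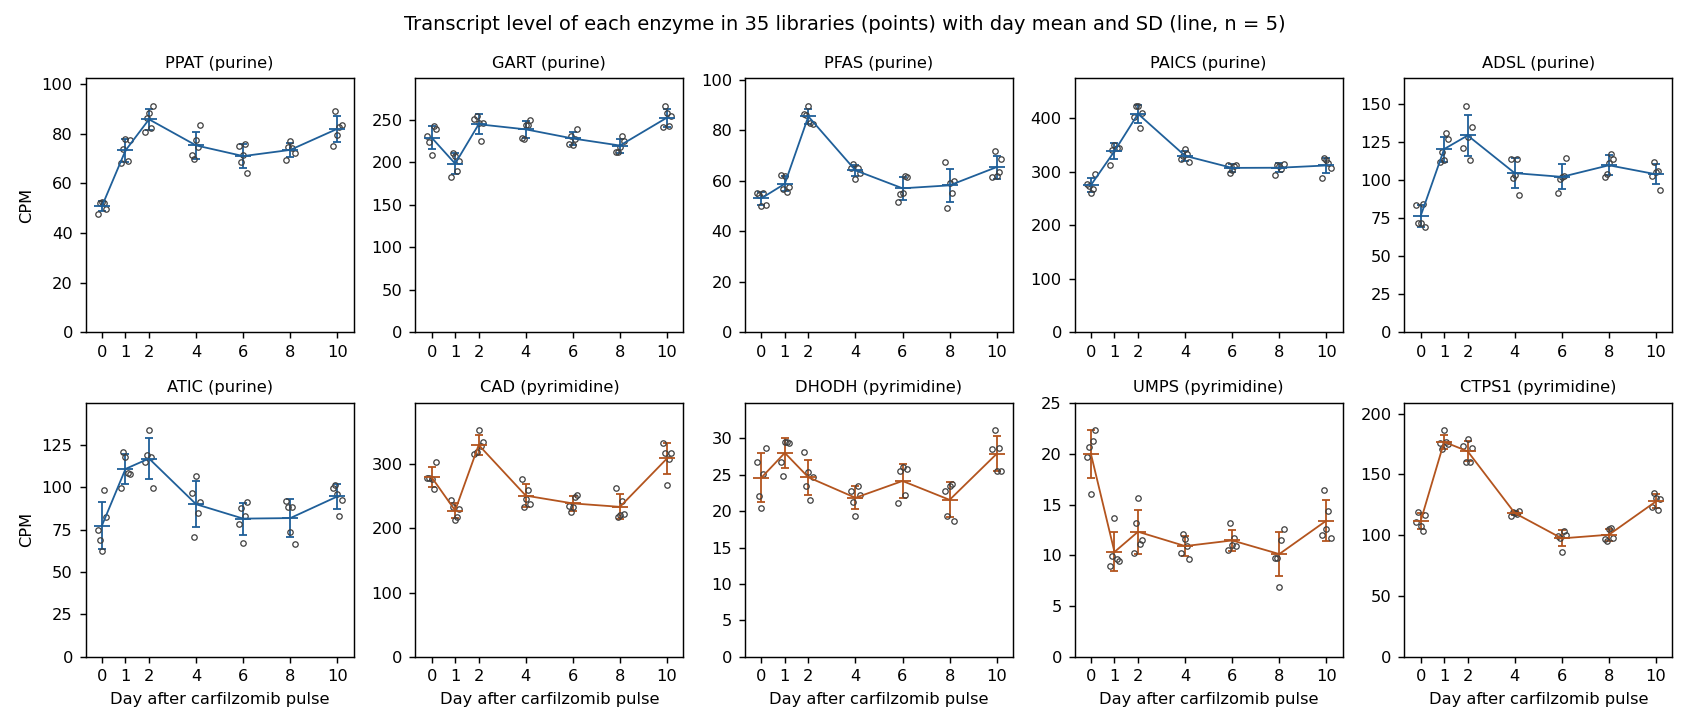
Level of each enzyme transcript in CPM (y axis, from 0) against the day after the carfilzomib pulse (x axis). Open circles are single libraries, and the line joins the day means with their SD (n = 5; blue for purine and orange for pyrimidine synthesis). PPAT is above its day 0 level in every later library, UMPS falls from 20.0 to 10.3 CPM by day 1, and the mean of CAD rises from 228 to 330 CPM between days 1 and 2.

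The purine and pyrimidine genes had different counts. Day 1 had 4 higher and 1 lower among the 6 purine genes. The days 2, 4, 6, 8 and 10 had 5, 4, 3, 3 and 6 higher, and no purine gene was lower after day 1. Among the 4 pyrimidine genes, 1, 2 and 1 were higher on days 1, 2 and 10 and none on the days between. The numbers lower were 2, 1, 2, 3, 3 and 1 in the order of the days. Among entries that passed the low-count filter, 36.1% (day 1) to 23.1% (day 10) were higher and 34.8% to 21.6% lower. In the fit of all biotypes, scaled otherwise and described further on, only UMPS was lower on each day. With all its entries summed, UMPS was not called on days 1 and 2. The difference between both routes was not tested.

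PPAT encodes amidophosphoribosyltransferase, which commits PRPP to purine synthesis. Its transcript was higher on every day after the pulse than before it. On day 0, the 5 libraries held 47.7, 52.1, 52.6, 52.1 and 49.7 CPM of PPAT. They held 68.2, 74.0, 77.9, 68.9 and 77.4 CPM on day 1 and 80.9, 86.3, 88.4, 82.2 and 91.4 CPM on day 2. No library of either day came down to the day 0 range. The log2 fold change against day 0 was 0.53 on day 1 (standard error, SE, 0.06, edgeR adjusted p = 5.46e-10) and 0.76 on day 2 (SE 0.06, adjusted p = 1.94e-14). PPAT was also higher on day 2 than on day 1, by 0.23 on the log2 scale and with no overlap between the libraries (edgeR adjusted p = 0.000991). From day 4 to day 8 the mean level was between 71.0 and 75.3 CPM, and on day 10 the libraries held 75.1, 89.1, 79.6, 82.8 and 83.6 CPM. The lowest PPAT value of any library after the pulse, 64.2 CPM on day 6, was above the highest of day 0. On day 10 the log2 fold change was 0.69 (SE 0.06, edgeR adjusted p = 1.61e-12), and days 2 and 10 did not differ beyond their spread (difference -0.06 on the log2 scale, 95% interval -0.18 to 0.05).

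GART (chr21:33503931-33543491, minus strand) encodes the trifunctional enzyme of the next reactions, including a transfer of a formyl group. Its differences from day 0 were small. Its libraries held 231, 224, 208, 243 and 239.9 CPM on day 0 and 182, 211, 207, 190.4 and 202 CPM on day 1, with an overlap between both days. The fall on day 1 was called (log2 fold change -0.21, SE 0.05, edgeR adjusted p = 0.000326). Without scaling factors between libraries it was -0.09 (adjusted p = 0.0858). In a fit of all biotypes, scaled otherwise and described further on, the coding entry did not fall. On day 2 GART stood at 251, 255, 247, 225 and 246 CPM, all above day 1, and the rise was 0.30 as a log2 fold change (SE 0.05, edgeR adjusted p = 1.16e-06). Days 2, 4, 6 and 8 were not called against day 0. Days 2 and 4 were called, however, without scaling factors, with log2 fold changes of 0.22 (edgeR adjusted p = 4.23e-05) and 0.17 (adjusted p = 0.00154), and with all entries of the gene summed, with 0.13 on each day (adjusted p = 0.0169 and 0.0194). Day 2 was also called in a fit of only days 0 and 2 (0.13, edgeR adjusted p = 0.0363). Day 10, at 242, 267, 258, 243 and 255 CPM, had the highest mean, with a log2 fold change of 0.14 against day 0 (edgeR adjusted p = 0.0193), but the call was lost without replicate 3 of day 0 or without replicate 2 of day 10.

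PFAS (chr17:8247618-8270491, plus strand) encodes FGAM synthase, which uses glutamine as its nitrogen donor. Its rise was concentrated on day 2. The libraries held 55.0, 54.3, 50.05, 55.1 and 50.4 CPM on day 0, 62.3, 56.8, 61.6, 55.6 and 57.3 CPM on day 1, and 86.3, 86.1, 89.7, 82.7 and 82.3 CPM on day 2. The day 1 libraries lay just above the day 0 range, and those of day 2 lay above every library of any other day. The day 1 difference was 0.15 on the log2 scale and missed the threshold (95% interval 0.01 to 0.28, edgeR adjusted p = 0.0590; 0.26 and adjusted p = 0.00112 without scaling factors), and that of day 2 was 0.69 (SE 0.06, adjusted p = 3.39e-12). PFAS fell by 0.42 on the log2 scale from day 2 to day 4 (SE 0.06, edgeR adjusted p = 9.29e-07), was not called on days 6 and 8, and was 0.30 above day 0 on day 10 (adjusted p = 0.000294).

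PAICS encodes the bifunctional enzyme that adds carbon dioxide and then aspartate to the growing ring. Like PFAS, it was highest on day 2, and unlike PFAS it was called on every day. On day 0 its libraries held 278, 273, 260.1, 268 and 297 CPM, on day 1 they held 313, 342, 349.8, 344 and 345 CPM, and on day 2 they held 403, 423, 424, 383 and 410.4 CPM. The 3 days did not overlap. PAICS was 0.30 above day 0 on day 1 on the log2 scale (SE 0.04, edgeR adjusted p = 9.58e-08) and 0.57 on day 2 (SE 0.04, adjusted p = 4.97e-15). On days 6, 8 and 10 the log2 fold change was 0.16, 0.16 and 0.18. Replicate 1 of day 10, at 289 CPM, lay within the day 0 range, as did replicate 1 of day 8, at 294 CPM.

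ADSL (chr22:40346461-40390463, plus strand) encodes adenylosuccinate lyase, which acts in IMP synthesis and once more on the way to AMP. It was higher on every day. The libraries held 83.7, 71.6, 71.9, 84.2 and 69.3 CPM on day 0, 112, 119, 113, 130.4 and 127 CPM on day 1, and 121, 149, 128, 113 and 135 CPM on day 2. No ADSL value after the pulse overlapped with day 0, and the lowest was 90.1 CPM, on day 4. It rose by 0.66 on the log2 scale on day 1 (SE 0.07, edgeR adjusted p = 3.32e-10) and 0.76 on day 2 (SE 0.07, adjusted p = 5.94e-12), without a call between these days. It stayed between 0.42 and 0.52 from day 4 to day 10. In the annotation, 11.1% of the exonic bases of ADSL are shared with another protein-coding gene on the same strand, so that reads from this stretch could have been split between both.

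ATIC encodes the bifunctional enzyme that closes the purine ring to give IMP. It was higher on days 1 and 2, and less so thereafter. Its libraries held 75.1, 69.2, 62.4, 98.2 and 82.4 CPM on day 0, which was a wide spread, 99.4, 121, 118, 108 and 108 CPM on day 1, and 115, 119, 134, 118 and 99.7 CPM on day 2. Both days lay above day 0 throughout. ATIC rose by 0.52 on the log2 scale on day 1 (SE 0.10, edgeR adjusted p = 2.78e-05) and 0.60 on day 2 (SE 0.10, adjusted p = 2.43e-06). On days 4, 6 and 8, ATIC overlapped with day 0 and was not called. Day 4 was called without scaling factors (log2 fold change 0.34, edgeR adjusted p = 0.00647), and days 4 and 8 were called with all ATIC entries summed (0.24 and 0.18, adjusted p = 0.000992 and 0.0144). On day 10 it was 0.29 higher (edgeR adjusted p = 0.0242), a call that was lost without replicate 2 or 3 of day 0 or without replicate 2 of day 10.

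**Figure D2:**
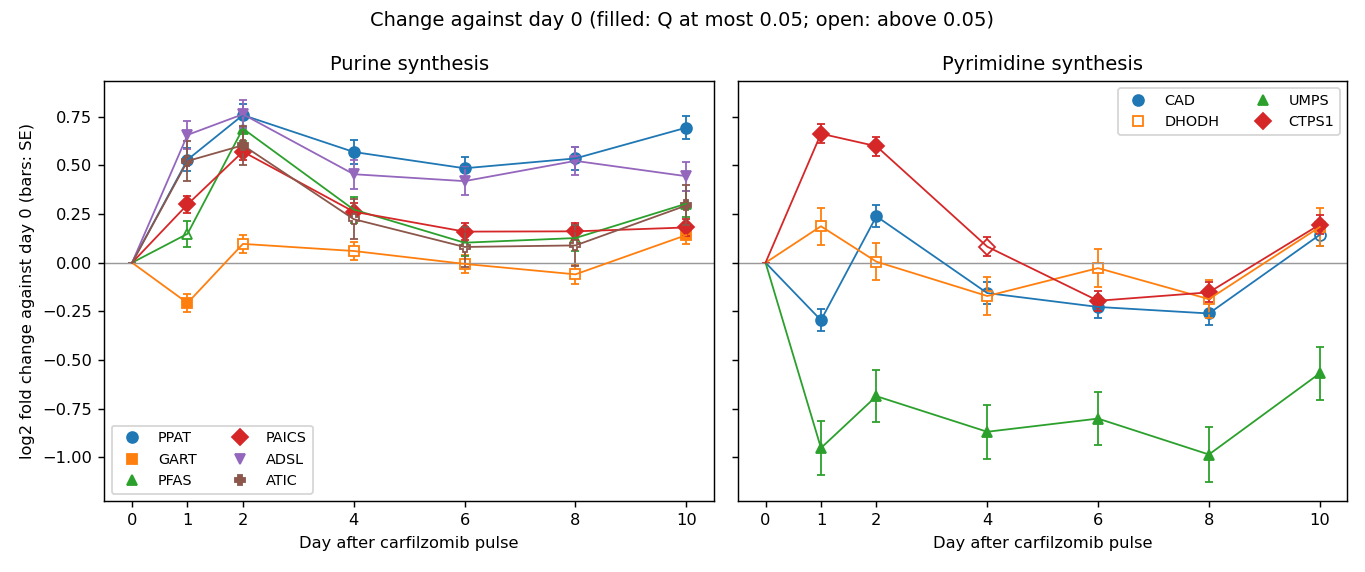
Log2 fold change against day 0 (y axis; bars are the SE) on each day after the pulse (x axis), for the 6 purine genes (left) and the 4 pyrimidine genes (right). Filled symbols passed Q of at most 0.05, and open symbols did not. PPAT and ADSL stay above 0.40 throughout, GART stays between -0.21 and 0.14, CTPS1 runs from 0.66 on day 1 to -0.20 on day 6, and UMPS stays at -0.57 or lower.

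CAD (chr2:27217369-27243943, plus strand) encodes the trifunctional enzyme that opens pyrimidine synthesis. Its level alternated from 1 time point to another. The libraries held 278, 278, 277, 261 and 304 CPM on day 0, 244, 234, 213, 218 and 230.3 CPM on day 1, and 315, 319, 353, 328 and 335 CPM on day 2. Day 1 lay wholly below and day 2 wholly above day 0. The log2 fold change was -0.30 on day 1 (SE 0.06, edgeR adjusted p = 2.99e-05) and 0.24 on day 2 (SE 0.06, adjusted p = 0.000521), and the rise between both days was 0.53 (adjusted p = 2.34e-10). The fall on day 1 was -0.18 without scaling factors (edgeR adjusted p = 0.0118). In the fit of all biotypes, which is scaled otherwise, it was -0.09 and not called (edgeR adjusted p = 0.373). CAD then fell by 0.39 on the log2 scale to day 4 (edgeR adjusted p = 4.39e-07). It was below day 0 on day 6, at 235, 225, 233, 249 and 252 CPM (log2 fold change -0.23, edgeR adjusted p = 0.00157), and on day 8 (-0.26, adjusted p = 0.000300). In the fit of all biotypes these were -0.17 (edgeR adjusted p = 0.0974) and -0.16 (adjusted p = 0.114). The day 4 difference of -0.16 (edgeR adjusted p = 0.0280) lost its call without scaling factors (-0.04, adjusted p = 0.622), with all entries summed (-0.11, adjusted p = 0.132), in a fit of only both days (-0.14, adjusted p = 0.0576), and also without replicate 1, 2 or 5 of day 0 or replicate 2, 3 or 5 of day 4. From day 8 to day 10 CAD rose by 0.40 (SE 0.06, edgeR adjusted p = 2.04e-06) to 333, 317, 268, 309 and 317 CPM. Its difference from day 0 was then 0.14 (95% interval 0.03 to 0.26, edgeR adjusted p = 0.0523), above the threshold. It was called with a low-count filter, without scaling factors, with the replicate block, with all entries summed, in a fit of only both days and with DESeq2, with log2 fold changes of 0.14 to 0.21 and adjusted p of 0.00614 to 0.0436. With RLE factors it was not (edgeR adjusted p = 0.0544).

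DHODH encodes dihydroorotate dehydrogenase, the enzyme of the mitochondrial inner membrane that makes orotate and passes electrons to ubiquinone. It was not called against day 0 on any day in this fit. Its libraries held 26.7, 22.1, 20.4, 25.1 and 28.7 CPM on day 0, and the mean on later days was between 21.6 CPM on day 8 and 28.001 CPM on day 1. The 95% interval of the log2 fold change was -0.01 to 0.38 on day 1, -0.19 to 0.20 on day 2 and -0.01 to 0.38 on day 10. These data thus allow a rise of up to 0.38 on days 1 and 10. On day 4 the interval was -0.37 to 0.03, which allows a fall of up to 0.37. On day 8 the log2 fold change was -0.19 (SE 0.10). Without scaling factors DHODH was called higher on days 1 and 10 (log2 fold change 0.30 and 0.25, edgeR adjusted p = 0.00652 and 0.0393). With all its entries summed both days were called as well (0.25 and 0.24, adjusted p = 0.0102 and 0.0177), and so they were without replicate 5 of day 0 (0.23 and 0.26, adjusted p = 0.0468 and 0.0435). The only called change between consecutive time points was from day 8, at 22.7, 19.4, 23.4, 23.7 and 18.6 CPM, to day 10, at 28.5, 31.1, 25.5, 28.7 and 25.5 CPM. These days did not overlap, and the rise was 0.37 on the log2 scale (SE 0.10, edgeR adjusted p = 0.00729).

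UMPS (chr3:124730433-124749273, plus strand) encodes UMP synthase, which joins orotate to PRPP and decarboxylates the product to UMP. Its coding transcript fell on day 1 and had not returned by day 10. On day 0 the libraries held 19.7, 20.6, 16.1, 21.2 and 22.3 CPM, and on day 1 they held 8.97, 9.92, 13.7, 9.60 and 9.47 CPM. Every day 1 library was below every day 0 library. This was a log2 fold change of -0.95 (SE 0.14, edgeR adjusted p = 1.70e-07). It was between -0.69 and -0.99 from day 2 to day 8, again without overlap with day 0. On day 10 the libraries held 11.96, 16.5, 12.6, 14.4 and 11.7 CPM, of which 1 lay within the day 0 range, and UMPS was still below day 0 (log2 fold change -0.57, SE 0.14, adjusted p = 0.000901). UMPS had the lowest counts of the 10 genes, from 46 to 140 per library, and the largest median coefficient of variation within a day, 14.9%.

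CTPS1 (chr1:40979300-41012565, plus strand) encodes CTP synthase 1, which makes CTP from UTP with glutamine. It had an early rise and a later dip. The libraries held 111, 119, 108, 104 and 116 CPM on day 0, 176, 171, 186, 176 and 175 CPM on day 1, and 173, 161, 179, 160.4 and 172 CPM on day 2. Days 1 and 2 lay far above day 0 and overlapped with each other. Against day 0, CTPS1 rose by 0.66 on the log2 scale on day 1 (SE 0.05, edgeR adjusted p = 3.67e-15) and 0.60 on day 2 (SE 0.05, adjusted p = 8.91e-14). CTPS1 fell by 0.52 on the log2 scale from day 2 to day 4 (edgeR adjusted p = 2.81e-11), where its 5 libraries held 115, 119, 119, 118 and 120.2 CPM, and by another 0.28 to day 6 (adjusted p = 0.000109). On day 6 it held 98.996, 98.0, 86.2, 104 and 99.95 CPM and was below day 0 (log2 fold change -0.20, edgeR adjusted p = 0.00190). On day 8 the difference was -0.15 (edgeR adjusted p = 0.0150). This call was lost without scaling factors (-0.10, adjusted p = 0.119), with all entries summed (-0.11, adjusted p = 0.110) and in a fit of only days 0 and 8 (-0.14, adjusted p = 0.0854). It was also lost without replicate 2 or 5 of day 0 or replicate 1, 2 or 5 of day 8. In the fit of all biotypes, scaled otherwise and described further on, CTPS1 was not called lower on day 6 or day 8. Its coding entry held means of 84.6 CPM on day 0 and 77.1 CPM on day 6 in that scale. With all entries summed, the day 6 difference was -0.22 (edgeR adjusted p = 0.000513). By day 10 CTPS1 stood at 123, 135, 130.3, 120.4 and 129.9 CPM, above all libraries of day 0, with a log2 fold change of 0.20 (edgeR adjusted p = 0.00185).

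Between consecutive time points, the changes of the 10 genes had 1 direction at a time. From day 1 to day 2, 5 genes rose (CAD, GART, PAICS, PFAS and PPAT) and 0 fell, when 20.2% of all entries rose and 19.4% fell. From day 2 to day 4, 7 genes fell (ADSL, ATIC, CAD, CTPS1, PAICS, PFAS and PPAT) and 0 rose, compared with 16.7% and 13.9% of all entries. The fall of PPAT in this step, -0.19 on the log2 scale, was the weakest of these calls (edgeR adjusted p = 0.00808) and was lost without replicate 2 or 3 of day 2 or replicate 2 of day 4. From day 4 to day 6 only CTPS1 fell in this fit, and PFAS and PAICS also fell with a filter on low counts or with DESeq2, while 5.98% of all entries fell and 6.09% rose. No gene of the 10 was called from day 6 to day 8 (background 1.03% higher and 1.53% lower), where CAD, PPAT and the others differed by between -0.18 and 0.10 on the log2 scale. None of the 10 had an unadjusted p under 0.05 in this step by edgeR, and 0 were called by DESeq2. From day 8 to day 10, 4 genes rose in this fit (CAD, CTPS1, DHODH and GART) and 0 fell, compared with 5.08% and 4.97% of all entries. PPAT and UMPS also rose with a filter on low counts or without scaling factors. UMPS did so with DESeq2 as well, and PFAS with all entries summed. In each direction with 0 calls, no unadjusted p was under 0.05 either. These comparisons share the libraries of the day in between, and they were read side by side.

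The order of the days differed between genes. For PPAT the descending order of the means was day 2, 10, 4, 8, 1, 6 and 0, and only the last neighbours, days 6 and 0, differed by the test. For PAICS, day 2 was above day 1 and day 6 above day 0, and the days between did not differ from their neighbours. For CTPS1 the order was day 1, 2, 10, 4, 0, 8 and 6, with a called step between days 2 and 10 and between days 0 and 8. For UMPS, day 0 stood first and differed from day 10 next to it, whereas the 6 later days did not differ from their neighbours. For CAD, days 2, 10 and 0 came before days 4, 6, 8 and 1, with a called step between days 0 and 4. No neighbours differed for ATIC or DHODH, although ATIC on days 1 and 2 differed from day 0.

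The count table also lists transcripts of these genes in other biotypes, such as transcripts annotated as targets of nonsense-mediated decay (which removes RNA with an early stop codon) or as retaining an intron. Here, all entries of any biotype with a count were fitted together (65717 of 84647). In this scale, CPM refers to library totals over all biotypes, and levels are lower than those above. Scaling was set by all biotypes too, so that the coding entries have other fold changes here. On day 1, those of GART, CAD, ATIC and UMPS all stood higher than in the fit of coding entries. Whether a fall that is not called here reflects the gene or this scaling was not tested. Of the 10 coding entries, 7, 8, 6, 3, 4 and 8 were higher than on day 0 on days 1, 2, 4, 6, 8 and 10, and 1 was lower on each day, UMPS. The shares of all coding entries called higher or lower in this fit were not computed, so these counts have no background of their own. Of the non-coding entries of the 10 genes, 18 had a mean of at least 1 CPM over the 35 libraries. In this fit, 21.9%, 18.4%, 14.2%, 11.5%, 12.8% and 10.3% of all entries were called in either direction on days 1, 2, 4, 6, 8 and 10. Of the 18 entries, 2, 2, 0, 1, 0 and 1 were higher and 2, 0, 3, 2, 2 and 0 lower on these days. The shares cover entries of any count, whereas the 18 were kept by their level, so both sets are unlike.

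The coding and the decay entry of UMPS moved in opposite directions on days 1 and 2. Its decay entry held 12.6, 16.3, 10.9, 11.2 and 19.8 CPM on day 0, 23.7, 26.5, 22.0, 23.1 and 28.1 CPM on day 1, and 29.0, 25.3, 20.7, 19.3 and 27.0 CPM on day 2. It was higher in every day 1 library than in any day 0 library, and on day 2 it overlapped in 1 library. The log2 fold change was 0.81 on day 1 (SE 0.14, edgeR adjusted p = 1.51e-05) and 0.78 on day 2 (adjusted p = 3.06e-05), and no later day was called. The coding entry in the same fit was at -0.75 on day 1 (edgeR adjusted p = 0.000234) and -0.51 on day 2 (adjusted p = 0.0140). It made up 47.5% of all UMPS counts on day 0 (SD 3.23, n = 5), 24.1% on day 1 (SD 3.31), 29.1% on day 2 and 41.7% on day 10. With all UMPS entries summed before the fit, the fall of days 1 and 2 was absent, with log2 fold changes of 0.10 (edgeR adjusted p = 0.276) and 0.08 (adjusted p = 0.415), an alternative chosen after the data were seen. The summed level was lower than on day 0 on days 4, 6, 8 and 10, with log2 fold changes of -0.38, -0.57, -0.51 and -0.34. The statement that UMPS fell on days 1 and 2 therefore holds for its coding entry and not for the sum of its transcripts. The share of each entry is an estimate, because the coding and the decay transcripts share exons and their reads were divided by Kallisto.

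ATIC had a decay entry of 8.63, 12.7, 9.18, 2.02 and 9.46 CPM on day 0 and of 0, 0.552, 0, 0.460 and 0 CPM on day 1. Hence the 5 libraries of day 1 together held few counts of it, while other days held up to 18.8 CPM in 1 library and 0 in another. The fitted log2 fold change on day 1 was -5.30 (SE 1.28, edgeR adjusted p = 0.00130). The ATIC entry with a retained intron was 0.61 higher on day 1 (SE 0.17, edgeR adjusted p = 0.00617). With all entries summed, ATIC was 0.42 higher on day 1 and 0.53 on day 2. Its coding entry was 0.52 and 0.60 higher in the fit of coding entries. In the fit of all biotypes it was 0.72 and 0.78 higher. The scaling differs between these fits, so their fold changes cannot be set against each other directly. GART had a retained-intron entry that held 13.2, 11.02, 17.2, 11.04 and 11.7 CPM on day 0, 8.71, 5.66, 7.13, 4.90 and 6.28 CPM on day 1, and 25.3, 18.8, 25.3, 24.6 and 31.9 CPM on day 10. The 3 days did not overlap. The log2 fold change of this entry was -0.97 on day 1 (SE 0.19, edgeR adjusted p = 6.60e-05) and 0.97 on day 10 (SE 0.17, adjusted p = 4.77e-05), whereas the coding entry of GART in this fit was at -0.00076 on day 1 (adjusted p = 1) and 0.23 on day 10 (adjusted p = 0.0205). The day 1 fall of GART was thus not found in this fit, which also placed ATIC, CAD and UMPS higher on day 1. With all GART entries summed, the fall was -0.18 (edgeR adjusted p = 0.00102). The retained-intron entry was also higher on day 6 (0.61, edgeR adjusted p = 0.0119). Smaller entries were called on days 4, 6 or 8. They were the decay entries of PPAT (-2.44 on day 4) and ADSL (-1.62 on day 4 and -1.59 on day 8), the retained-intron entries of PAICS (-1.26 on day 4 and -1.31 on day 8) and CAD (-0.94 on day 6), and the processed transcript of CTPS1 (-0.81 on day 6). Their means were between 1.02 and 8.94 CPM. With each of the 10 libraries left out in turn, the call was lost 6 and 9 times for ADSL on days 4 and 8, 8 and 9 times for PAICS and 7 times for CTPS1, but 0 times for PPAT and CAD. Among the earlier calls, that of the ATIC entry with a retained intron on day 2 (0.50, edgeR adjusted p = 0.0317) was lost 5 times.

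**Figure D3:**
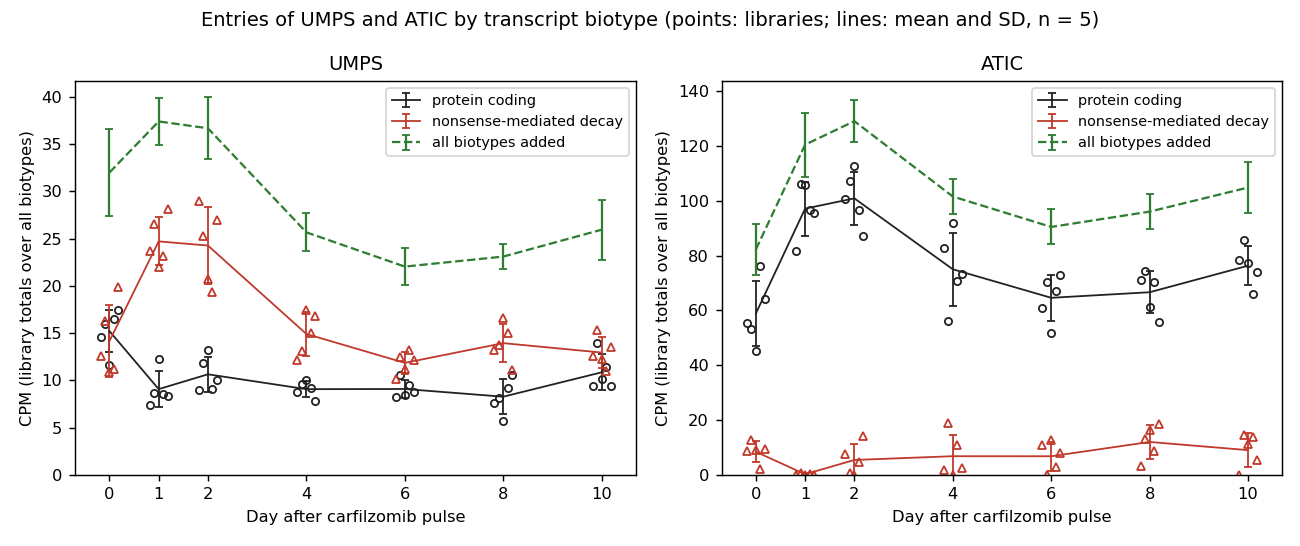
Level in CPM of library totals over all biotypes (y axis) of the coding and the decay entries of UMPS (left) and ATIC (right) against the day after the pulse (x axis). Points are libraries, solid lines are means with SD (n = 5), and the dashed line is the sum over all biotypes of the gene. For UMPS the mean of the decay entry lies above that of the coding entry on every day after the pulse, most of all on days 1 and 2, and the sum goes from 31.99 to 37.4 CPM between days 0 and 1. For ATIC the decay entry is at most 0.552 CPM on day 1.

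The 10 transcripts were not parallel across the libraries. Pearson's r of log2 CPM over the 35 libraries was between -0.56 and 0.80 for the 45 pairs of genes, with a median of 0.31. These are descriptions over libraries that share their day, and no p was computed. The pair with the highest r was PFAS with PAICS (0.80). PPAT and PAICS, the neighbours on chromosome 4 whose shared interval is shown above, had an r of 0.72, which was rank 5 of the 45 pairs. Pairs on different chromosomes, such as PAICS with ADSL (0.79), ranked above them. Whether the interval between PPAT and PAICS had a part in their r was not tested. The levels of PPAT and PAICS parted after day 2. PPAT on day 10 did not differ from day 2, whereas PAICS on day 10 was below day 2 (log2 difference -0.39, SE 0.04, edgeR adjusted p = 4.07e-10), with no overlap between the libraries. UMPS stood apart, with r between -0.56 and 0.40 against the others. Without it, the median of the remaining 36 pairs was 0.42.

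**Figure D4:**
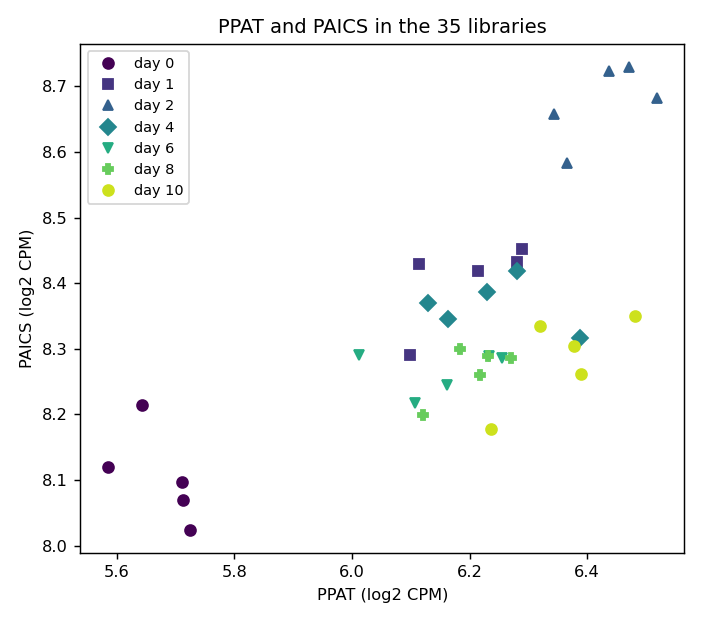
PAICS (y axis) against PPAT (x axis), both in log2 CPM, in the 35 libraries, with symbol and colour by day. The day 0 libraries lie at the lower left and those of day 2 at the upper right, while those of day 10 reach the PPAT range of day 2 at a lower PAICS level. Over all libraries, r is 0.72.

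The mean of the 10 standardised log2 CPM values was followed most closely by PFAS (r = 0.86) and PAICS (r = 0.83) among the genes themselves, and UMPS had an r of 0.02 with it. Each of the 10 genes is part of this mean, which raises its r, so these values are not comparable with those of other genes. Among all other protein-coding entries outside the lists used here, HNRNPR was most like this mean, with an r of 0.90 over the 35 libraries. SSRP1 and RFC4 followed with 0.87 each, and KHDRBS1 with 0.87 and OGDH with 0.86. Between days 0 and 2 the level of HNRNPR went from 230.3 ± 15.3 to 363 ± 14.9 CPM (SD, n = 5), and that of RFC4 from 19.9 ± 3.56 to 56.8 ± 2.46 CPM.

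Genes around the 10 enzymes were read from lists of the neighbouring steps. The counts are to be set beside the shares of entries that were higher and lower. Of all entries these were 25.4% and 27.3% on day 1, 23.2% and 24.4% on day 2, and 16.1% and 15.8% on day 10. Among entries that passed the low-count filter they were 36.1% and 34.8%, 33.1% and 31.7%, and 23.1% and 21.6% on these days. In lists of 3 to 10 genes the counts are descriptions. The supply of PRPP, the substrate of PPAT and UMPS, is made by PRPS1 and PRPS2. PRPS1 rose from 64.7 ± 8.47 to 171 ± 7.98 CPM by day 1 (log2 fold change 1.40, SE 0.07, edgeR adjusted p = 9.90e-21), while PRPS2 fell by 0.35 on the log2 scale (adjusted p = 0.000205). Of the 4 genes of this supply, 2, 3 and 1 were higher on days 1, 2 and 10, and 1 was lower on day 1. From IMP to AMP and GMP, with 5 genes, the numbers higher and lower were 3 and 2, 3 and 1, and 3 and 0 on these days. IMPDH1 and GMPS, both on the GMP branch, led the rises, with log2 fold changes of 1.02 for IMPDH1 on day 2 and 0.46 for GMPS on day 10. Among 6 genes of purine salvage, 4 were higher and 1 was lower on day 1, and 5 were higher on day 2, with HPRT1 at 1.10. Day 10 had 4 higher.

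Pyrimidine salvage, with 9 genes, had 4 higher and 2 lower on days 1 and 2, and 5 higher and 1 lower on day 10. TK1, the thymidine kinase of proliferating cells, was the highest of them on day 2, with a rise from 33.8 ± 3.32 to 154 ± 4.27 CPM (log2 fold change 2.19, edgeR adjusted p = 4.59e-26), when UPP1 was the lowest (-1.83). The list of CTPS2 and nucleotide kinases had 4 of 8 higher and 2 lower on day 1, and then 3 and 1 (day 2) and 0 and 2 (day 10). The supply of deoxynucleotides had the largest list median, 1.73 on day 2, when 6 of its 8 genes were higher and 2 lower. It had 4 higher and 3 lower on day 1, and 5 and 1 on day 10. RRM2, the small subunit of ribonucleotide reductase, rose by 2.84 on the log2 scale on day 2 (edgeR adjusted p = 4.18e-29), from 25.1 ± 1.91 to 179 ± 11.4 CPM, while RRM2B, its other form, was lower on days 1, 2 and 10 (-0.91, -0.78 and -0.76).

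Enzymes of folate one-carbon metabolism, from which GART and ATIC draw formyl groups, had a negative median on each of the 3 days. Of 8, 2 were higher on days 1, 2 and 10, and 6, 5 and 3 were lower, with list medians of -0.81, -0.61 and -0.17. The mitochondrial ALDH1L2 was the lowest on each of these days (-2.84, -2.36 and -0.82), and the cytosolic SHMT1 the highest (0.67, 1.20 and 0.56). Nucleotide breakdown, with 10 genes, had 4, 2 and 4 higher and 2, 3 and 0 lower on the same days. Of 3 nucleoside transporters, 2 were higher on days 1, 2 and 10. Of MYC and the 6 subunits of the replicative helicase, all 7 were higher on day 1, with MYC the least changed (0.17, edgeR adjusted p = 0.0154). On day 2 all 6 helicase subunits were higher, up to 1.59 for MCM7, and MYC was lower (-0.19, edgeR adjusted p = 0.00784), by little more than the 0.13 by which the median entry moved without scaling factors. All 7 were higher again on day 10.

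**Figure D5:**
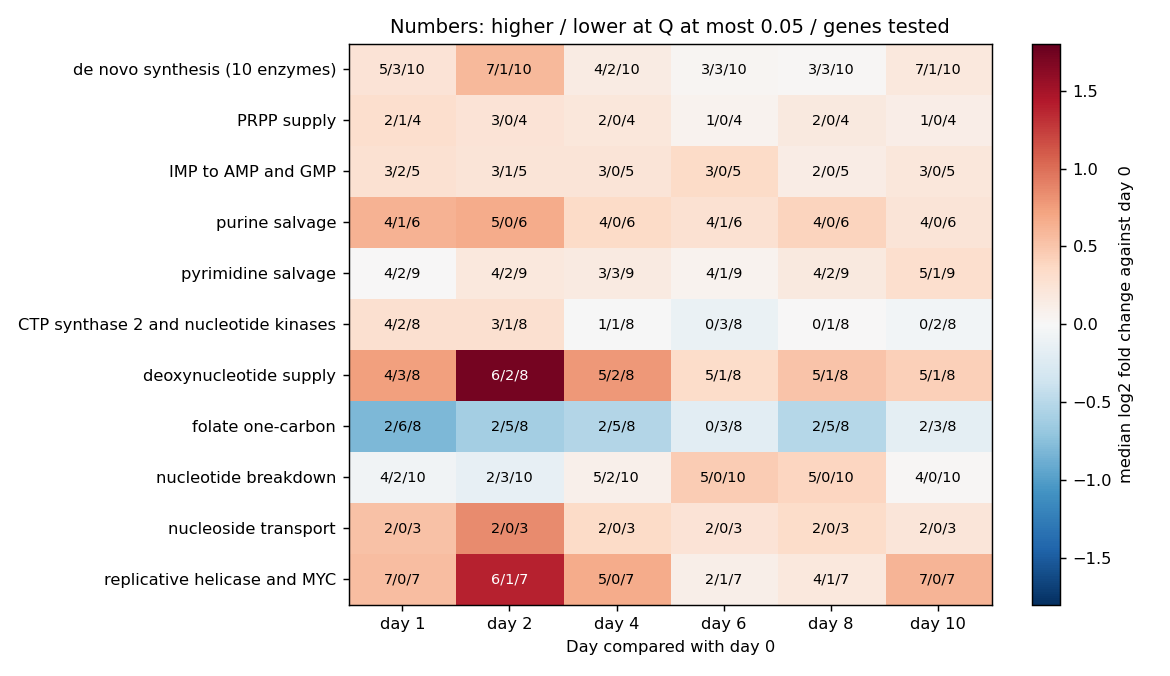
Median log2 fold change against day 0 (colour scale) of the 10 enzymes and of 10 lists around them (y axis) on each day after the pulse (x axis). The numbers in each cell are the genes higher, the genes lower and the genes tested. The deepest red is deoxynucleotide supply on day 2 (1.73), and the deepest blue is folate one-carbon on day 1 (-0.81).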

How the data were processed

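Deposited values were estimated counts, which the authors made with Kallisto (version 0.44.0 per the labels) against the GENCODE transcriptome of GRCh38, with GC-bias adjustment, and summarised with tximport by gene symbol and transcript biotype. They are whole numbers that were not scaled for library size, and totals ranged from 6519392 to 10962890 per library. No reads were realigned. The RNA libraries were prepared with a directional kit, and the strand setting of the pseudoalignment is not given in the sources used here.

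Of 19665 protein-coding entries, the 17999 that were not 0 throughout entered a quasi-likelihood model of edgeR 4.0.16 (R 4.3.3), scaled by TMM (factors from 0.929 to 1.08). The model had 1 mean for each day, took all 35 libraries and had no further terms. The p-values were adjusted after Benjamini and Hochberg. The call was Q of at most 0.05. Intervals are 95% intervals of the fold change from the same fit, and log2 CPM used a prior count of 2. Comparisons were made with day 0 and between consecutive time points, and the remaining pairs of days were used for the order of levels. Entries of all biotypes were fitted in the same way. The fit was tested on simulated data.

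The text names the 10 enzymes, the highest and lowest gene of each list on days 1, 2 and 10, and the 5 entries most like the mean of the enzymes among the 12301 that passed filterByExpr. Not every gene of the rule is printed. The members and lists were chosen with earlier results of these data known. Alternatives were filterByExpr, RLE factors, no factors, a replicate block, a fit of only the days compared, DESeq2 1.42.0, a fold change above 2 and each library left out. Summing the biotypes of a symbol, and the alternatives for other biotypes and lists, were added after the data were seen. Promoter windows came from RefSeq (GRCh38.p14), and positions from a GENCODE annotation of the same build.

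No replicate libraries were identical, and their counts differed by more than sampling noise. Labels and files name no batch. The proteome and metabolome were not analysed here. Of the markers listed for other cell types, 1 is not reported here.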

Additional observations from a re-analysis of the deposited data

Results flagged for a closer look

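In 2 of the 70 groups of 5 libraries of the 10 enzymes, a single library lay far from the other 4 by Dixon's criterion, which flags about 5% of groups by chance. PAICS on day 1 was 313 CPM in replicate 1, compared with 342 to 349.8 CPM in the others. UMPS on day 1 was 13.7 CPM in replicate 3, compared with 8.97 to 9.92 CPM in the others. Both day 1 differences from day 0 kept their call with each library left out in turn.

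Pairs of days were flagged where both were called against day 0 in opposite directions and their own difference was called too by edgeR. These conditions selected the pairs, so the calls below are no separate support. Several of the calls against day 0 were lost under alternatives given above, among them GART on days 1 and 10, CAD on day 4 and CTPS1 on day 8. GART was called lower than day 0 on day 1 and higher on day 10, and days 10 and 1 differed by 0.35 on the log2 scale. CAD was called above day 0 on day 2 and below it on days 1, 4, 6 and 8, and the difference between days 2 and 1 was 0.53, that between days 4 and 2 was -0.39, that between days 6 and 2 was -0.47, and that between days 8 and 2 was -0.50. CTPS1 was above day 0 on days 1, 2 and 10 and below it on days 6 and 8. Its differences were -0.86 for day 6 against day 1, -0.82 for day 8 against day 1, -0.79 for day 6 against day 2, -0.75 for day 8 against day 2, 0.39 for day 10 against day 6, and 0.35 for day 10 against day 8.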

How the results depend on the processing

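Of the 59 calls of the enzymes, all were kept with a low-count filter, RLE factors, the replicate block and DESeq2. No paired result is given, since same-numbered libraries did not deviate together (median r 0.00 over 105 pairs, 1 of them above 0.1), and the block changed no call except that CAD on day 10 reached Q (0.14, adjusted p = 0.0436), as it did under the other alternatives named above. Leaving out each library ended 5 of the 59 at least once (named above) and reversed 0 of them.

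No enzyme was counted with a fold change above 2 (0 higher and 0 lower in every comparison). With the low-count filter or DESeq2, 3 were lower from day 4 to day 6, and likewise without factors, in which case the median entry moved by up to 0.13, day 4 had 7 higher and 1 lower, and 8 list genes in place of 13 were lower on day 4. A fit of only both days left 1 lower on day 4. With the filter, 4 and 2 other-biotype entries were lower on days 1 and 2. With biotypes summed, 0 were lower on day 2, 1 on day 4 and 2 from day 4 to day 6.

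With each library left out, 1 to 2 were lower on day 4 and from day 4 to day 6. Higher counts of other biotypes were 1 to 3, 0 to 1, 1 to 2 and 0 to 2 on days 2, 4, 6 and 8, and lower counts 2 to 4, 0 to 1, 1 to 3, 1 to 2 and 0 to 1 on days 1, 2, 4, 6 and 8.

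Apart from UMPS, sign changes were confined to differences that were not called. DHODH on day 2 was -0.031 (filter), -0.016 (RLE) and -0.017 (DESeq2), and -0.054 to 0.050 with each library left out. GART from day 2 to day 4 was 0.0055 (filter), 0.0016 (summed) and -0.065 to 0.015. GART on day 6 was 0.047 (no factors), 0.074 (summed) and -0.039 to 0.018, and DHODH on day 6 was 0.024, 0.0064 and -0.087 to 0.036. From day 6 to day 8, PAICS was -0.0036 without factors and -0.010 to 0.030, PFAS -0.021 to 0.094, ATIC -0.053 to 0.084, and CAD 0.0046 (summed) and -0.067 to 0.0027. Summed, GART on day 8 was 0.036, and UMPS was 0.10 on day 1, 0.077 on day 2, -0.024 from day 1 to 2, -0.19 from day 4 to 6 and 0.055 from day 6 to 8. Beyond the split of UMPS between biotypes, the cause of these changes was not tested. The precision of UMPS was limited by its counts of 46 to 140 per library.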
